A study of Mus musculus with 12 samples.

Results

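In RNA from the embryonic mouse pallium, the dorsal forebrain that forms the cortex, 10 genes of phagocytic and complement function in microglia, C1qa, C1qb, C1qc, Trem2, Tyrobp, Apoe, Cd68, Lgals3, Lpl and Spp1, were followed. They are 10 of the 54735 gene symbols in the deposited tables. They were chosen by their function together with TPM values already seen in these libraries. Which comparison was consulted is not recorded, so all are taken as used, and the values, fold changes and calls below describe where these genes stand and do not test them independently. In all, 12 C57/Bl6 embryos were profiled at stage E13.5, with 4 embryos in each of 3 genotypes. Control embryos were Rnu11wt/flx::Trp53wt/wt::Emx1-Cre+, conditional knockouts (cKO) were Rnu11flx/flx::Trp53wt/wt::Emx1-Cre+, and double knockouts (dKO) were Rnu11flx/flx::Trp53flx/flx::Emx1-Cre+. Rnu11 encodes the U11 small nuclear RNA of the minor spliceosome, and Trp53 encodes p53. All 3 groups carry Emx1-Cre, which recombines in progenitors of the pallium and their descendants, so the controls too can lose 1 Rnu11 copy there. Microglia descend from yolk sac progenitors and enter the brain from outside, so they are not part of the lineage in which Emx1-Cre is active.

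Microglia at this age are rounded, mobile cells that take up dying cells. C1q, the first component of the classical complement pathway, is assembled from the C1qa, C1qb and C1qc chains and tags material for uptake. Trem2 is a surface receptor for lipids and apoptotic material that signals through the adaptor Tyrobp, also called DAP12. Cd68 is a glycoprotein of late endosomes and lysosomes, and Lgals3 encodes galectin-3, a lectin that binds exposed sugars on damaged membranes. Apoe carries lipids between cells, Lpl releases fatty acids from lipoproteins, and Spp1 encodes the secreted glycoprotein osteopontin. Several of these genes mark phagocytic microglia in development and in disease, but most are also expressed by macrophages at the brain's borders.

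Values are TPM, which scales each gene for its length and each library to a fixed sum, so levels can be compared between genes. Fold changes come from limma on log2(TPM + 1) over 11764 genes whose mean over the embryos reached 1 TPM. A gene was called where its Benjamini-Hochberg adjusted p over all tested genes was below 0.05. Of the 10 genes, 8 were tested. Lpl, with a mean of 1.29 TPM over the 12 embryos, lay just inside the limit, and Trem2, with 0.637 TPM, lay just outside it. Lgals3 had a mean of 0.394 TPM. Spp1 passed with a mean of 1.56 TPM only through the cKO embryos, and 7 of the genes had a control mean of at least 1 TPM.

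The targeted genes followed the labels: Rnu11 lay at 521 to 724 TPM in controls, 115 to 159 TPM in cKO and 142 to 199 TPM in dKO embryos, and Trp53 at 0.920 to 1.49 TPM in dKO against 2.63 to 6.37 TPM in the other 8 libraries. Pallial genes were present, with Emx1 at 8.84 ± 1.94 TPM and Neurod6 at 94.4 TPM in controls (mean, with SD, n = 4). Control embryo 1 stood apart from the other libraries in genes of hepatocytes. A list of 16 such genes, chosen after these values were seen, summed to 54.5 TPM there and to 1.07 to 6.65 TPM in the other 11 libraries. Of these genes, 15 had their highest value in that embryo, among them Alb at 14.3 TPM against at most 0.124 TPM elsewhere, while Afp, the abundant fetal liver protein, was at 0.147 TPM. Results that rest on this library are given with and without it. The cKO libraries were also shifted as a whole. The median change of all tested genes was 0.25 on the log2 scale in cKO against control, -0.01 in dKO against control and -0.26 in dKO against cKO. Protein-coding genes made up 14.6% to 16.3% of the TPM sum in control, 16.1% to 19.99% in cKO and 14.4% to 15.5% in dKO embryos. Every cKO share was thus above every dKO share. Calls were therefore repeated under other scalings, 1 that set the protein-coding sum of all libraries equal (rescaling) and 1 that removed each library's median shift (centring).

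All 10 genes were higher in every cKO embryo than in every control embryo, and all 10 were lower in every dKO embryo than in every cKO embryo. For comparison, 32.7% of the tested genes were separated upward between cKO and control, and 32.8% downward between dKO and cKO. By limma, 7 of the 8 tested genes were called higher in cKO than in control, against 34.3% of all tested genes. The same number was called after rescaling, against 11.3% of all genes, and after centring, against 3.72%. Spp1 was tested only through its cKO level, and without it 6 of 7 were called before either scaling. The median log2 change of the tested members was 1.76, or 1.65 after rescaling and 1.52 after centring. In this bulk tissue, more cells of a type and more RNA per cell cannot be told apart.

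**Figure D1:**
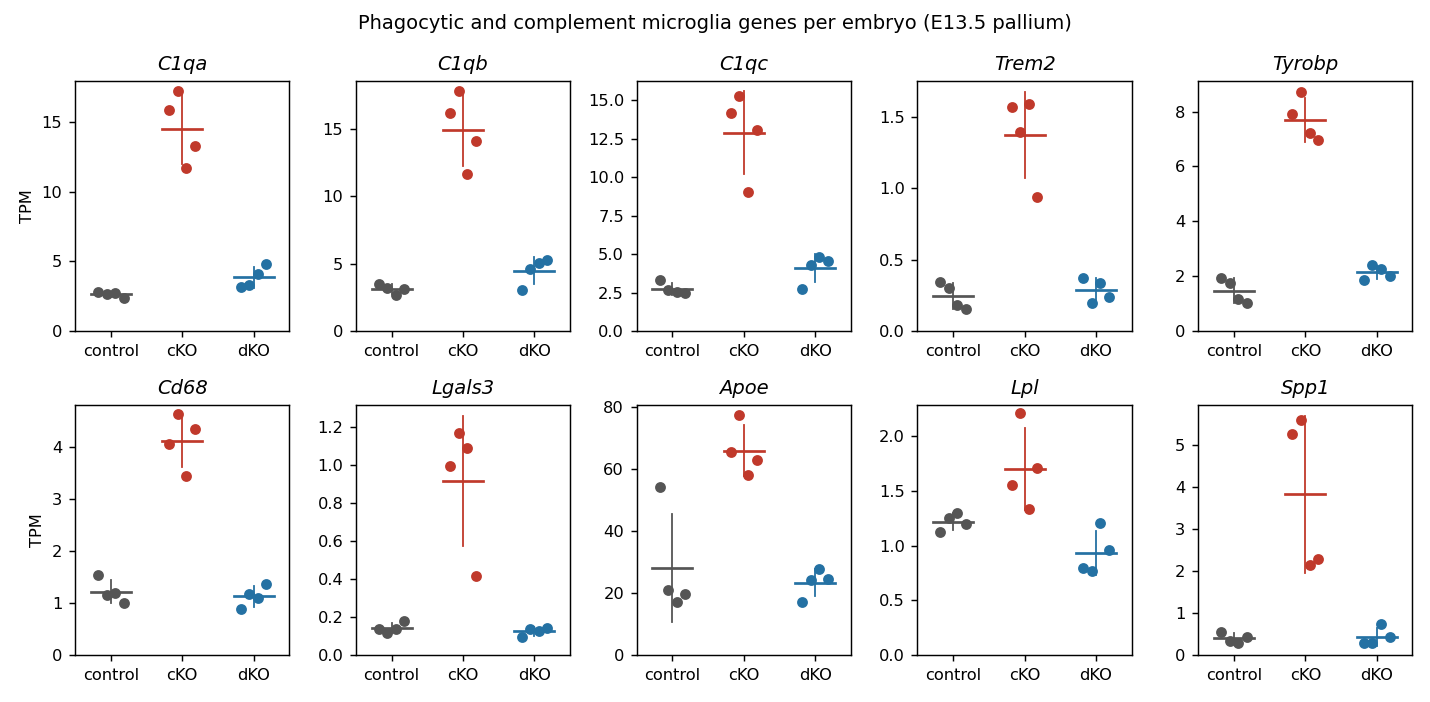
TPM of each of the 10 genes, 1 panel per gene, with 1 point per embryo and the group mean with its SD (n = 4 per genotype). In every panel the 4 cKO points lie above the 4 control points and the 4 dKO points. Control embryo 1 is the single high control point for Apoe, at 54.2 TPM.

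The 3 C1q genes lie side by side on the minus strand of chromosome 4 (GRCm38, called mm10). In the GENCODE M21 annotation C1qb spans chr4:136880129-136886187, C1qc chr4:136889804-136893065 and C1qa chr4:136895917-136898803. The whole cluster covers 18675 bases, and no annotated gene overlaps the 3 genes. The 250 bases before the RefSeq start of C1qb, at chr4:136886201-136886450, and of C1qc, at chr4:136892915-136893164 (GRCm38.p6, minus strand), are shown because both genes moved together. Capitals mark the letters GAGGAA, the core that the myeloid factor PU.1 recognises, or their reverse complement.
C1qb: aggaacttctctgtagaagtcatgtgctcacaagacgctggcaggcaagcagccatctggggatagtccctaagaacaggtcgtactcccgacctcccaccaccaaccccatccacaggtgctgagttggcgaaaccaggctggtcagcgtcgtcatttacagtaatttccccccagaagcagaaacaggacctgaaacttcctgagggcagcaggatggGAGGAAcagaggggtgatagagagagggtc
C1qc: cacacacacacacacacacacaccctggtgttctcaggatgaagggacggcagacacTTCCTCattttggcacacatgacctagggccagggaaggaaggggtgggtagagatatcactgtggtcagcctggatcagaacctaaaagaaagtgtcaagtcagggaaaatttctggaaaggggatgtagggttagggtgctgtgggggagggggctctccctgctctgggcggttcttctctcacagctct
The match starts 30 bases before the RefSeq start of C1qb and 193 bases before that of C1qc. GENCODE M21 places the start of C1qc further upstream, at chr4:136893065, so part of the C1qc stretch lies inside its GENCODE span. Windows from 250 bases before to 50 bases after a start were found for 7 of the 10 genes, and none for C1qa, Tyrobp and Lpl. GAGGAA, sought on both strands, occurred in a window of 6 of these 7 genes, against 31.3% of 27025 genes with windows, where Apoe has 3 windows and Spp1 has 2. By window it occurred in 7 of 10, against 28.3% of 32851. The Lgals3 window, which held no match, lies inside the GENCODE span of that gene, at chr14:47373610-47373909. CACGTG, the core of sites for lysosomal regulators such as Tfeb, occurred in none of the 7 genes and in 8.09% of all genes. A match describes these letters and is no evidence of binding.

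C1qa measured 2.79, 2.64, 2.73 and 2.41 TPM in control embryos 1 to 4. It measured 15.8, 17.2, 11.7 and 13.2 TPM in the cKO embryos and 3.17, 3.32, 4.12 and 4.83 TPM in the dKO embryos. The cKO values stood clear of both other groups, and the dKO values lay above every control value. The mean rose 5.48-fold in cKO, from 2.64 ± 0.164 to 14.5 ± 2.49 TPM (SD, n = 4), or by 2.07 on the log2 scale (SE 0.128, limma adjusted p = 1.6e-06).

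C1qb measured 3.47, 3.23, 2.65 and 3.15 TPM in controls, 16.2, 17.8, 11.7 and 14.1 TPM in cKO, and 3.08, 4.59, 5.06 and 5.27 TPM in dKO embryos. Of the dKO values, 3 lay above all controls, and dKO embryo 1 lay among them. The mean was 4.78-fold higher in cKO than in control, or 1.94 on the log2 scale (SE 0.148, limma adjusted p = 7.3e-06).

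C1qc measured 3.33, 2.69, 2.56 and 2.47 TPM in controls, 14.2, 15.3, 9.07 and 13.1 TPM in cKO, and 2.75, 4.30, 4.85 and 4.54 TPM in dKO embryos. Here too dKO embryo 1 lay within the control range and the other 3 above it. The cKO mean was 4.67-fold the control mean, or 1.87 on the log2 scale (SE 0.164, limma adjusted p = 2.0e-05). For all 3 chains cKO embryo 3 was the lowest of its group and cKO embryo 2 the highest.

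The chains kept close proportions within each embryo. C1qc measured 0.783 to 0.965 of C1qb in controls, 0.778 to 0.927 in cKO and 0.862 to 0.959 in dKO embryos, so the 3 groups overlapped. C1qa measured 0.766 to 1.03 of C1qb in controls, 0.939 to 1.00 in cKO and 0.723 to 1.03 in dKO embryos, again with overlap. C1qc was thus below C1qb in all 12 embryos, whereas C1qa lay on either side of C1qb in each group. The neighbours of the cluster, named after their values were seen, gave a local reference. Ephb2, which lies 44141 bases away, had 7.66 TPM in control, 9.23 TPM in cKO and 7.68 TPM in dKO embryos, and Zbtb40, at 80929 bases, had 1.40, 1.66 and 1.40 TPM. Neither was called in cKO against control. Epha8, at 30616 bases, had 0.0403, 0.133 and 0.0618 TPM and was not tested.

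Trem2 and Tyrobp, the receptor and its signalling adaptor, lie on chr17:48346401-48354147 and chr7:30413760-30417585 (GRCm38, both plus strand) and overlap no annotated gene. The 250 bases before the Trem2 start, chr17:48346151-48346400, carry the same letters 40 bases before the start, marked in capitals on the opposite strand.
Trem2: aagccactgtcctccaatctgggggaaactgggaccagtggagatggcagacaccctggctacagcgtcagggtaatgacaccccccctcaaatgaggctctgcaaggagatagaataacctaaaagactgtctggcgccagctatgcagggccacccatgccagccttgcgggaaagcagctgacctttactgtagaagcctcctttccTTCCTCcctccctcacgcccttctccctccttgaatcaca
Tyrobp measured 1.93, 1.77, 1.17 and 1.02 TPM in controls, 7.92, 8.73, 7.21 and 6.96 TPM in cKO, and 1.87, 2.41, 2.28 and 2.02 TPM in dKO embryos. Its cKO values spanned less of their mean than those of the C1q genes, and the dKO values overlapped the controls at their upper end. The mean rose 5.23-fold in cKO, from 1.47 ± 0.448 to 7.70 ± 0.795 TPM (SD, n = 4), or by 1.83 on the log2 scale (SE 0.123, limma adjusted p = 2.8e-06).

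Trem2 was low in every library, at 0.345, 0.305, 0.186 and 0.156 TPM in controls, 1.57, 1.40, 1.59 and 0.943 TPM in cKO, and 0.375, 0.198, 0.338 and 0.242 TPM in dKO embryos. The lowest cKO value was above the highest value of the other groups, while the dKO and control ranges overlapped. The ratio of the cKO and control means was 5.54, close to that of Tyrobp. In a second limma fit that kept 20128 genes, down to a mean of 0.1 TPM, and added 0.1 TPM in place of 1, the log2 change of Trem2 was 2.10 (SE 0.237, adjusted p = 0.00022). In that fit 9 of the 10 genes were called higher, against 26.8% of all genes in it, and all 10 were called lower in dKO than in cKO, against 32.8%. Within embryos Trem2 was 0.153 to 0.179 of Tyrobp in controls, 0.136 to 0.220 in cKO and 0.0824 to 0.201 in dKO, ranges that overlapped.

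Cd68 and Lgals3 report on lysosomes and on the handling of engulfed or damaged membrane. Cd68 (chr11:69664213-69666153, minus strand) measured 1.54, 1.16, 1.19 and 0.995 TPM in controls, 4.06, 4.63, 3.45 and 4.36 TPM in cKO, and 0.886, 1.18, 1.09 and 1.36 TPM in dKO embryos. The dKO values straddled the control values. The mean rose 3.38-fold in cKO, or by 1.21 on the log2 scale (SE 0.106, limma adjusted p = 1.9e-05), a smaller ratio than for the C1q genes or Tyrobp. The difference between members was not tested.

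Lgals3 (chr14:47367751-47386160, plus strand) had the lowest level of the 10 genes, at 0.134, 0.115, 0.135 and 0.180 TPM in controls, 0.996, 1.17, 1.09 and 0.416 TPM in cKO, and 0.0921, 0.139, 0.123 and 0.142 TPM in dKO embryos. In the cKO group embryos 1 to 3 were near 1 TPM, and embryo 4 was well below them but above every other embryo. The ratio of the cKO and control means was 6.50. In the fit that kept low genes its log2 change was 2.00 (SE 0.263, limma adjusted p = 0.00053).

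Apoe (chr7:19696109-19699188, minus strand), the lipid carrier, was the most abundant of the genes in every group, and it is also made by neural progenitors and by liver. It measured 54.2, 21.1, 17.2 and 19.6 TPM in controls, 65.6, 77.5, 58.1 and 62.9 TPM in cKO, and 17.2, 24.1, 27.6 and 24.6 TPM in dKO embryos. Control embryo 1 was far above the other 3 controls, and it is the library with hepatocyte genes. With all 4 controls the mean rose 2.36-fold in cKO, or by 1.36 on the log2 scale (SE 0.287, limma adjusted p = 0.0054). Without control embryo 1 the control mean was 19.3 ± 1.99 TPM (SD, n = 3), the ratio 3.42 and the log2 change 1.72 (SE 0.154, limma adjusted p = 6.5e-05). The gene beside it, Apoc1, measured 15.1 TPM in control embryo 1, 0.479 to 0.557 TPM in the other controls, 1.61 to 1.98 TPM in cKO and 0.153 to 0.644 TPM in dKO embryos. The changes of the C1q genes, Tyrobp, Cd68 and Spp1 in cKO were all called without that library, at log2 values of 2.09, 1.98, 1.94, 1.92, 1.27 and 1.75.

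Lpl (chr8:68880491-68907448, plus strand), the lipoprotein lipase, had the smallest difference of the tested genes in cKO against control. It measured 1.12, 1.25, 1.30 and 1.20 TPM in controls, 1.55, 2.22, 1.34 and 1.71 TPM in cKO, and 0.798, 0.768, 1.21 and 0.960 TPM in dKO embryos. The groups were separate in cKO against control, but by a gap of only 1.30 to 1.34 TPM. The log2 change was 0.28 (SE 0.110, limma adjusted p = 0.067), which was not called, and it was 0.03 after centring (limma adjusted p = 0.92).

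Spp1 (chr5:104435118-104441050, plus strand) encodes osteopontin, a ligand of integrins and Cd44. The annotated transcript Gm42793 overlaps it on the same strand. How shared reads were handled is not given, so whether reads of Gm42793 entered the Spp1 values is not known. Its window holds the same letters 113 bases before the start, and the 250 bases before the start, at chr5:104434861-104435110, are shown because its ratio was the largest of the 10 genes.
Spp1: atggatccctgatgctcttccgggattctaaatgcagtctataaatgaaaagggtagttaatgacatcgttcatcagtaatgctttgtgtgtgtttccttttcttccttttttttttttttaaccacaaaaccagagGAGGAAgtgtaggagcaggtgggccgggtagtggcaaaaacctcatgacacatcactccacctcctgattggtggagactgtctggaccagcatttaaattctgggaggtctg
Spp1 measured 0.551, 0.343, 0.293 and 0.426 TPM in controls, 5.27, 5.60, 2.15 and 2.28 TPM in cKO, and 0.276, 0.294, 0.738 and 0.430 TPM in dKO embryos. The cKO embryos fell into a higher pair, 1 and 2, and a lower pair, 3 and 4, and even the lower pair was above every other embryo. The ratio of the cKO and control means was 9.49, from 0.403 ± 0.113 to 3.83 ± 1.86 TPM (SD, n = 4), and the log2 change was 1.70 (SE 0.229, limma adjusted p = 0.00051). In the order of levels within cKO embryos Spp1 stood above Lpl, whereas Lpl stood above it in control and dKO embryos. Its cKO range overlapped that of Lpl, at 1.34 to 2.22 TPM, and that of Cd68, at 3.45 to 4.63 TPM.

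**Figure D2:**
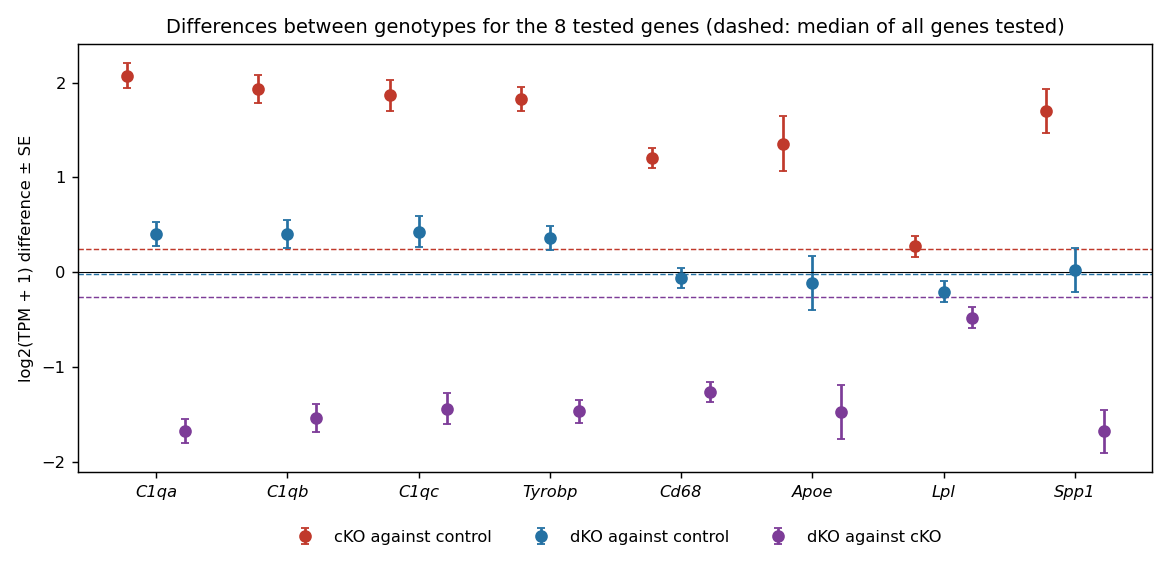
Log2 changes with standard errors from limma for the 8 tested genes in the 3 comparisons of genotypes (4 embryos per group). Trem2 and Lgals3 were below the limit of 1 TPM and have no value in this fit. Dashed lines are the medians of all genes tested. The cKO against control changes run from 0.28 for Lpl to 2.07 for C1qa.

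In dKO against control embryos limma called none of the 8 tested genes, although 4 had an unadjusted p under 0.05. Over all tested genes 1.79% were called higher and 3.4% lower. The 4 genes were C1qa, at 0.40 on the log2 scale (SE 0.128, limma adjusted p = 0.092), C1qb with 0.40 (SE 0.148, limma adjusted p = 0.15), C1qc with 0.43 (SE 0.164, limma adjusted p = 0.16) and Tyrobp with 0.36 (SE 0.123, limma adjusted p = 0.12). Their dKO means were 1.46, 1.44, 1.49 and 1.46 times the control means. C1qa was the only 1 of the 10 genes whose dKO values all lay above the control values, against 5.14% of tested genes. Leaving out dKO embryo 1, C1qb was called, at 0.54 (limma adjusted p = 0.037). The other tested genes had values nearer to 0: 0.02 for Spp1, -0.06 for Cd68, -0.11 for Apoe and -0.20 for Lpl. Without control embryo 1 the Apoe value was 0.25 (limma adjusted p = 0.42) and that of Cd68 was 0.01 (limma adjusted p = 0.99). A p above the limit does not show that dKO and control embryos were alike.

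Against cKO, all 8 tested genes were called lower in dKO embryos, where 38.8% of all tested genes were. Spp1, among the 8, was tested only through its cKO level. Log2 changes were -1.67 for C1qa, -1.54 for C1qb, -1.44 for C1qc, -1.47 for Tyrobp, -1.47 for Apoe, -1.27 for Cd68, -1.68 for Spp1 and -0.48 for Lpl. The call for Lpl, with a limma adjusted p of 0.0063, was lost after rescaling, at -0.35 (limma adjusted p = 0.062), and after centring, at -0.21 (limma adjusted p = 0.26). The other 7 were called under both, where 8.28% and 3.83% of all genes were. Trem2 and Lgals3 had dKO means of 0.210 and 0.135 times the cKO means. The comparisons of cKO with control and of dKO with cKO share the cKO embryos, so they are not independent.

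Levels of these genes relative to a sum of other genes of the same cells were described by ratios within each library. Such ratios do not depend on the library's scale. The reference was the summed TPM of 10 genes of macrophage lineage cells, Csf1r, Cx3cr1, Ptprc, Fcer1g, Laptm5, Cd53, Ly86, Mpeg1, Aif1 and Spi1. It summed to 5.34 to 6.86 TPM in controls, 19.5 to 29.0 TPM in cKO and 7.09 to 10.2 TPM in dKO embryos. The summed C1q genes were 1.32 to 1.48 times this reference in controls, 1.65 to 1.80 times in cKO and 1.27 to 1.55 times in dKO embryos. The cKO ratios lay above all others, and the dKO and control ratios overlapped. On the log2 scale the cKO mean was 0.31 above the control mean and the dKO mean was 0.03 above it. Set against Csf1r and Cx3cr1 alone, the cKO difference was 0.34, although the highest control log2 ratio, at 3.12, came close to the lowest cKO log2 ratio, at 3.13. Single genes of these cells rose by unlike amounts, so a ratio to the sum does not set C1q apart from each of them. From control to cKO, Fcrls, a microglia gene outside the reference, rose from 1.29 to 7.52 TPM. Within the reference, Aif1 rose from 0.969 to 5.04 TPM and Cx3cr1 from 0.688 to 2.98 TPM.

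**Figure D3:**
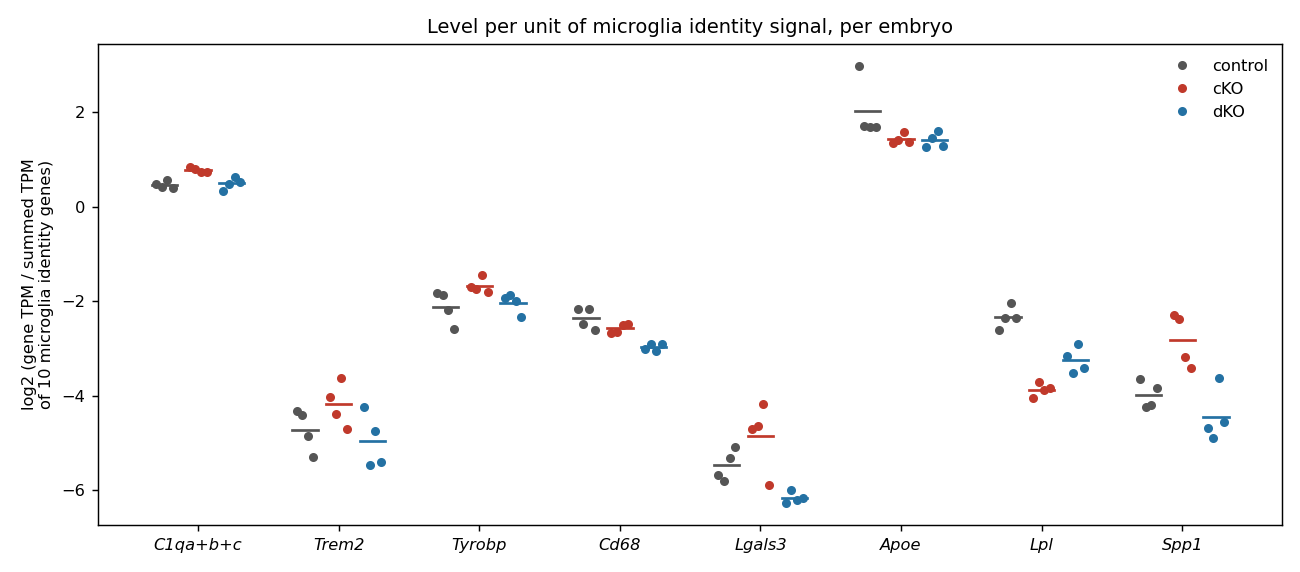
Log2 ratio of each measure to the summed TPM of the 10 reference genes, 1 point per embryo in each genotype, with bars at the group means. For the summed C1q genes the cKO ratios run from 0.73 to 0.84 and the control ratios from 0.40 to 0.57, while Lpl is lower in cKO than in control embryos.

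The other members went different ways by this measure. Tyrobp, with a cKO minus control difference of 0.45, and Spp1, with 1.16, were higher per unit of the reference in every cKO than in every control embryo, for Tyrobp by a gap of only -1.83 to -1.81 on the log2 scale. Trem2 and Lgals3, at 0.53 and 0.63, overlapped between these groups. Cd68 was lower relative to the reference in dKO embryos, at -3.05 to -2.90, than in control embryos, at -2.62 to -2.15, or cKO embryos, at -2.66 to -2.49. The Lpl ratio was lower in cKO, at -4.05 to -3.71, than in control, at -2.61 to -2.04. The Apoe ratio lay at 1.35 to 1.57 in cKO, at 1.27 to 1.61 in dKO and at 1.68 to 1.71 in control embryos 2 to 4, with 2.98 in control embryo 1, the library with hepatocyte genes. Against Csf1r and Cx3cr1 alone the Apoe ratios of cKO, at 3.64 to 4.05, and control, at 4.00 to 5.10, overlapped. Apoe and Lpl are also expressed outside the macrophage lineage, and the share of each source was not tested.

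Genes of the surrounding pathways were counted from lists put together for this purpose. Beside each count stand the 34.3% of all tested genes called higher in cKO, or 11.3% after rescaling and 3.72% after centring. A list gene whose control and dKO means were below 1 TPM was tested only because it was high in cKO, and such genes are counted where they occur. Of complement components and receptors other than C1q, 6 of 10 tested genes rose in cKO, among them Csmd3, from 1.14 to 2.45 TPM, and Cd93, a surface glycoprotein of endothelial and myeloid cells, from 1.65 to 3.12 TPM. The median log2 change of the list was 0.38, and 4 of the 10 were called higher after rescaling and 1 after centring. C3, the central component downstream of C1q, was not tested. It had 1.44 TPM in control embryo 1, the library with hepatocyte genes, 0.720 TPM in cKO embryo 4 and at most 0.177 TPM in the other 10 libraries. The receptor for the C3 fragment C3a, C3ar1, was not tested and had 0.250 TPM in control, 1.40 TPM in cKO and 0.379 TPM in dKO embryos.

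Of the genes of Trem2 and Tyrobp signalling, 3 of 6 tested genes rose in cKO. These were Fcer1g, another adaptor with the same type of signalling motif, from 1.74 to 7.07 TPM, Ms4a6d, from 0.490 to 2.60 TPM, and Adam17, a protease that can shed Trem2, from 6.65 to 8.95 TPM. The call for Adam17 was lost after rescaling (limma adjusted p = 0.076) and after centring (limma adjusted p = 0.40), which left 2 of 6. Ms4a6d was tested only through its cKO level, and without it 2 of 5 rose. Fcer1g, at 2.91 TPM in dKO embryos, was also called higher in dKO than in control, by 0.52 (limma adjusted p = 0.043). It was the 1 gene of this list called there, where 1.79% of all tested genes were called higher. With single embryos left out, 0 to 1 were. The other 21 genes of this list were below the limit, among them Syk, the kinase that binds the phosphorylated adaptor, at 0.0977 TPM in control, 0.302 TPM in cKO and 0.186 TPM in dKO embryos.

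Of the engulfment receptors and bridging molecules, 10 of 17 tested genes rose in cKO, led by the Fc receptor Fcgr3, by 1.38 on the log2 scale from 1.28 TPM, the lipid exporter Abca1, from 1.81 to 5.14 TPM, and Gas6, which links exposed phosphatidylserine to Axl and Mertk, from 1.66 to 4.55 TPM. Mertk itself was at 0.127, 0.308 and 0.152 TPM in control, cKO and dKO embryos. The count was 4 after rescaling and 4 after centring, 6 without control embryo 2 and 5 without cKO embryo 4. Cd36 was the 1 gene of the list tested only through its cKO level. Of the other genes of activated phagocytic microglia, 11 of 13 rose, including Lyz2, from 2.28 to 7.82 TPM, the lipid droplet protein Plin2, by 1.30 on the log2 scale from 8.30 TPM, and Cd52, from 0.538 to 2.64 TPM. The count was 7 after rescaling and 6 after centring, and 9 of 11 without Csf1 and Cd52, which were tested only through their cKO levels. Some markers of activated microglia in disease stayed low, with Cst7 at 0.0243, 0.0946 and 0.0418 TPM, Clec7a at 0.107, 0.205 and 0.136 TPM, and Itgax at 0.00133, 0.0124 and 0.0165 TPM in control, cKO and dKO embryos. Gpnmb, at 0.0289, 0.442 and 0.0407 TPM, was higher in every cKO embryo than in any other embryo.

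Lysosomal genes, the group to which Cd68 belongs, had 27 of 31 tested members higher in cKO, with a median log2 change of 0.62. Ctsd, a major aspartic protease of the lysosome, rose from 18.4 to 57.5 TPM, and Lgmn, a cysteine protease, from 8.59 to 24.5 TPM. The count was 20 after rescaling and 15 after centring, and 26 of 30 without Man2b1, tested only through its cKO level. Of genes of lipoprotein handling around Apoe and Lpl, 10 of 17 rose in cKO, among them Apod, from 7.76 to 16.5 TPM, and Pltp, from 1.70 to 4.19 TPM, and 5 were called after either scaling. Pltp, at 3.24 TPM in dKO embryos, was also called higher in dKO than in control, by 0.66 (limma adjusted p = 0.014). It was the 1 gene of this list called higher there, where 1.79% of all tested genes were, and 1 other was called lower. Of receptors and relatives of Spp1 and Lgals3, 5 of 8 rose, led by Lgals9, from 0.567 to 2.34 TPM, and Lgals1, from 17.1 to 30.7 TPM. The count was 4 after rescaling and 2 after centring, and 4 of 7 without Lgals9, tested only through its cKO level.

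**Figure D4:**
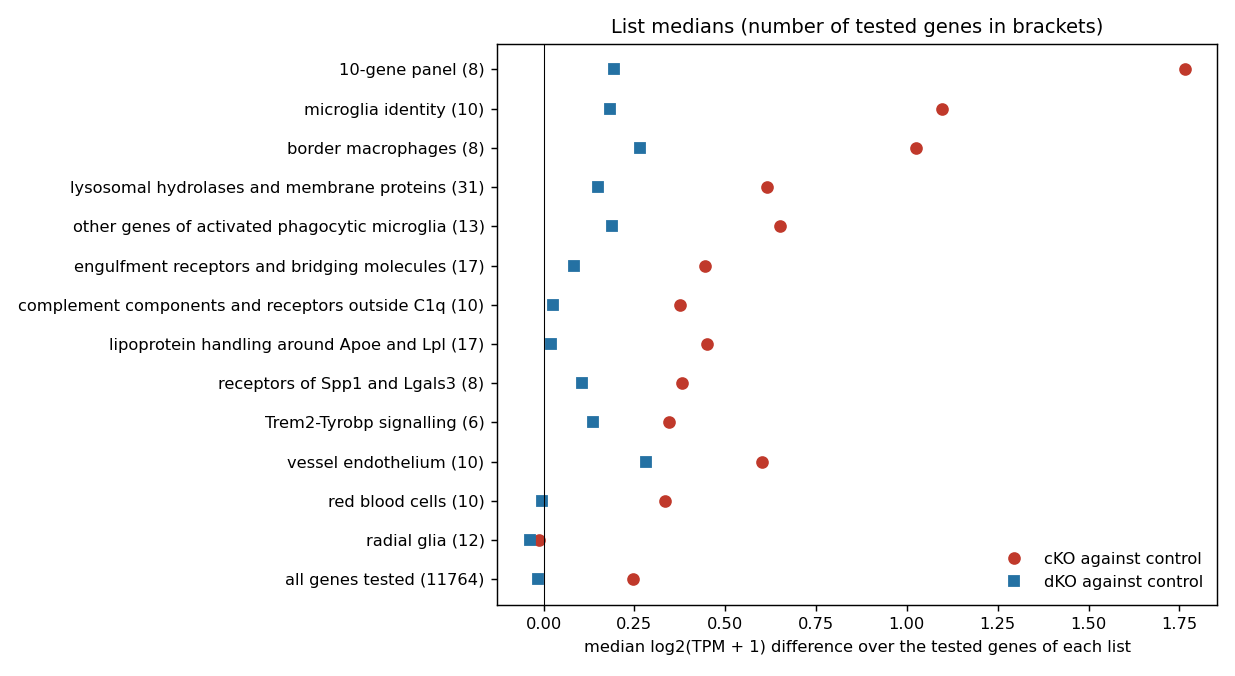
Median log2(TPM + 1) difference over the tested genes of each list, in cKO against control (circles) and dKO against control (squares), with the number of tested genes in brackets and all tested genes in the bottom row. The members, the 10-gene panel, are at 1.76 in cKO against control, and all genes tested are at 0.25.

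Markers of the cell types the tissue could hold were read beside these results. Of microglia identity genes, 8 of 10 tested genes rose in cKO, and 8 were called higher after rescaling and after centring, with Fcrls from 1.29 to 7.52 TPM, Aif1 from 0.969 to 5.04 TPM, Cx3cr1 from 0.688 to 2.98 TPM and Csf1r from 0.538 to 1.75 TPM. Cx3cr1, Csf1r and Cd53 were tested only through their cKO levels, and without them 5 of 7 rose. The remaining 2 were P2ry12 and Sall1. P2ry12, a receptor of ramified microglia, had 1.53, 1.76 and 1.15 TPM, and Sall1, which neural progenitors also express, had 5.45, 3.95 and 5.38 TPM in control, cKO and dKO embryos. Neither was called in cKO against control, except that Sall1 was called lower after centring (log2 change -0.62, limma adjusted p = 0.049). P2ry12 was called lower in dKO than in cKO embryos, where 38.8% of all tested genes were and their median log2 change was -0.26. In that comparison 8 of the 10 tested genes of this list were called lower before either scaling. The count was 7 after rescaling, against 8.28% of all tested genes, and 6 after centring, against 3.83%. Tmem119, a marker of mature microglia, was not tested and had 0.493, 1.01 and 0.709 TPM.

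Of border macrophage genes, all 8 tested rose in cKO, and 7 were called after either scaling. Cd36 was tested only through its cKO level. Pf4 had 1.58, 4.80 and 3.04 TPM, Mrc1 0.901, 3.05 and 1.38 TPM in control, cKO and dKO embryos. The summed list ranged over 9.89 to 13.4 TPM in controls, 27.3 to 34.8 TPM in cKO and 12.4 to 20.5 TPM in dKO embryos. Because the 10 genes are shared with these cells, the part of border macrophages in their values was not tested. Defining genes of monocytes and granulocytes were low. Ccr2 had 0.0242, 0.0966 and 0.0327 TPM and S100a8 0.0294, 0.0840 and 0.117 TPM in the 3 groups. S100a9 reached 2.11 TPM in cKO embryo 4 and 1.96 TPM in dKO embryo 1, and Plac8 lay at 0.377 to 0.689 TPM in cKO against 0.0651 to 0.349 TPM in control embryos. The summed list, at 21.1 to 27.2, 36.2 to 45.9 and 24.5 to 33.0 TPM, was mostly Vcan.

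Vessel genes also moved. Of endothelial genes 9 of 10 rose in cKO, 6 after rescaling and 4 after centring, with summed levels of 21.4 to 26.9, 35.8 to 49.1 and 25.9 to 35.7 TPM. Pericyte genes had 3 of 4 higher, 2 after rescaling and 1 after centring, with summed levels of 7.19 to 10.4, 13.2 to 18.1 and 8.77 to 11.7 TPM. Genes of meningeal fibroblasts had 4 of 7 higher, 3 after rescaling and 1 after centring, with sums of 28.2 to 48.3, 51.0 to 59.7 and 44.4 to 62.8 TPM. The choroid plexus and hem list had 4 of 9 higher, 2 after rescaling and 1 after centring. The count was 2 without cKO embryo 4 and 7 without cKO embryo 2 or dKO embryo 3. Ttr had means of 58.2, 140.1 and 140.7 TPM but was not called in any comparison of all 12 embryos. Its values overlapped, at 35.0 to 90.7 TPM in control, 60.4 to 224 TPM in cKO and 57.0 to 267 TPM in dKO embryos. In cKO against control, none of 10 red blood cell genes was called by limma, and none had an unadjusted p under 0.05. Without control embryo 1, 3 of them were called higher. At that unadjusted limit 1 gene was higher in dKO than in control, and 1 was higher and 1 lower in dKO than in cKO. The part of these cell types in the levels of the 10 genes was not tested.

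The genes whose profile was most like C1q were ranked by the root mean square distance, over the 12 embryos, between centred log2(TPM + 1) profiles and the mean of C1qa, C1qb and C1qc. Over 11756 genes the median distance was 0.77. Of the 10 nearest genes, 9 are named here. The nearest was Fcrls at 0.092, followed by Ctsd at 0.19, Serpine2 at 0.19, Lyz2 at 0.25, Zfp365 at 0.25, Aif1 at 0.25, Cox6b2 at 0.26, Sesn2 at 0.27 and Lgmn at 0.27. Fcrls, Aif1, Ctsd, Lyz2 and Lgmn are on the microglia, lysosome or activation lists above. Serpine2, Zfp365, Cox6b2 and Sesn2 are on none of them. Zfp365, at 0.316 TPM in control and 0.523 TPM in dKO embryos, and Sesn2 were compared only through their cKO levels. The limit of 1 TPM thus favoured genes high in cKO in this ranking, and Trem2 and Lgals3 were left out by it. Serpine2, which encodes a secreted protease inhibitor, had 1.90, 8.82 and 2.33 TPM, and Sesn2, which encodes a stress sensor and is a known p53 target, had 0.505, 4.01 and 0.548 TPM in control, cKO and dKO embryos. Among the members, Tyrobp lay at 0.18, Spp1 at 0.26, Cd68 at 0.33, Apoe at 0.43 and Lpl at 0.71. The distance is a description, since the embryos of a group share their genotype.

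**Figure D5:**
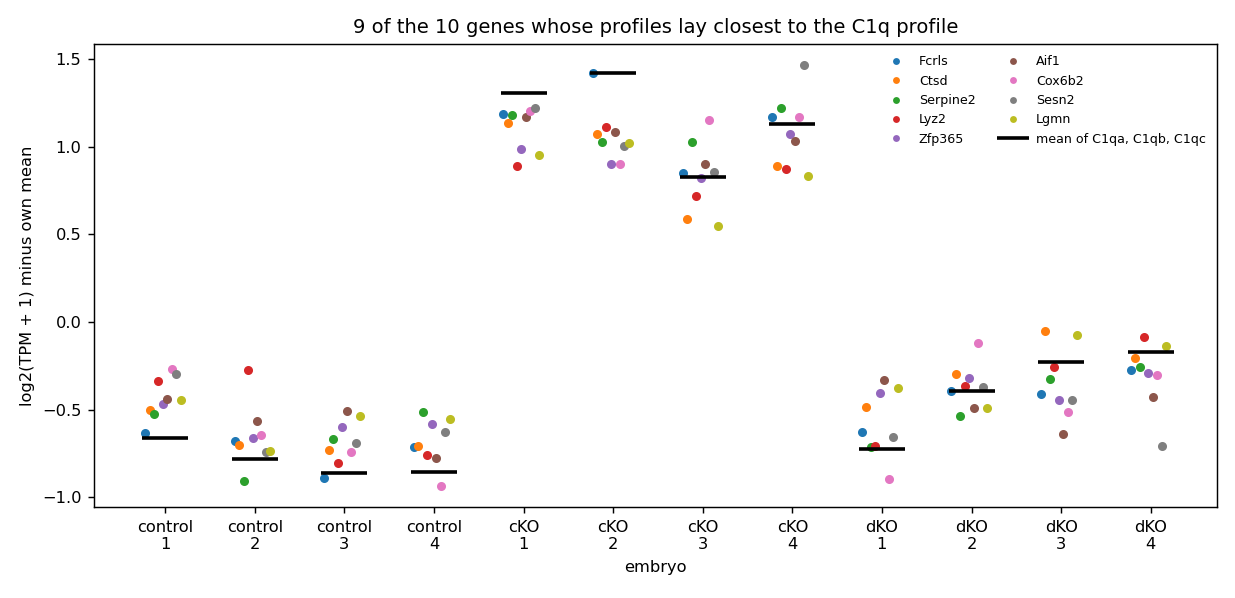
Centred log2(TPM + 1) of 9 of the 10 genes closest to the C1q profile (points) and of the mean of C1qa, C1qb and C1qc (black bars) in each of the 12 embryos. The 9 genes lie above their own mean in all cKO embryos and below it in the control and dKO embryos.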

How the data were processed

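Pallia from 12 embryos were placed in Trizol and their RNA was made into stranded total RNA libraries for NextSeq500 sequencing, per the labels' protocols. The deposited values are TPM per gene symbol, 1 table per embryo, a unit inferred from the values, which have the same sum in every table and carry no header that names it. HISAT2 and mm10 are named in the submitters' processing notes, and the counting tool, the annotation and the handling of reads shared between genes are not given in the sources used here. How deeply each library was sequenced cannot be read from TPM, so no counting interval is given.

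Groups came from the genotype labels. Nothing says whether embryos shared a litter, so p-values measure the spread between these embryos. Log2(TPM + 1) values entered limma 3.58.1 (R 4.3.3, lmFit and eBayes with trend), the 3 groups in 1 fit, for 11764 genes averaging 1 TPM or more, with Benjamini-Hochberg adjustment over all of them. The procedure was tested on simulated data. Of 54735 symbols, 54106 matched GENCODE M21, and promoter sequences came from RefSeq (GRCm38.p6). Rescaling used 21870 nuclear protein-coding genes, with factors of 0.798 to 1.10. The alternatives were a pseudocount of 0.1 TPM, no filter, a mean of at least 0.1 TPM with that pseudocount, both scalings, a replicate block and leaving out each embryo.

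The members, lists and tests were chosen with earlier results of these data known. Named from each list were up to 3 genes with the largest called change per direction, plus defining markers whatever their values. Genes outside this rule are C3, C3ar1, Syk, Mertk, Cst7, Clec7a, Itgax, Gpnmb, S100a9, Plac8 and the list genes tested only through their cKO levels, chosen after their values were seen, like the hepatocyte genes, Apoc1 and the C1q neighbours. Some genes that this rule names are not reported here.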

Additional observations from a re-analysis of the deposited data

Results flagged for a closer look

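Apoe in control embryos had 1 embryo far from the other 3. The gap between control embryo 1 and the next highest control was 0.894 of the group's whole range, above Dixon's critical value for 4 values. Of 33 groups of 4 embryos examined, 1 passed this limit, where about 1 in 20, or 1.65 groups, would by chance. The embryo measured 54.2 TPM against 17.2 to 21.1 TPM, and it is the library in which the hepatocyte genes summed to 54.5 TPM.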

How the results depend on the processing

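The 7 calls in cKO against control were also made under every alternative, with 7 to 8 genes called when single embryos were left out. Lpl was the added gene, called without cKO embryo 3 at 0.34 (limma adjusted p = 0.034). In dKO against cKO 8 genes were called in every such fit, and 7 after rescaling and after centring. In dKO against control 0 to 1 genes were called, and C1qb was the 1 called without dKO embryo 1. With a replicate block, 7, 0 and 8 genes were called in the 3 comparisons, the same as without it. No pairing by embryo number was seen, as none of the 12 same-numbered pairs had a correlation above 0.1 (range -0.095 to 0.075). Such correlations cannot show whether embryos shared a litter or were handled together. The C1q ratio to the reference genes differed by 0.28 to 0.34 in cKO against control and by -0.33 to -0.23 in dKO against cKO, and by -0.017 to 0.078 in dKO against control, where it changed sign without dKO embryo 3. Changes of sign in dKO against control occurred for Apoe, over -0.29 to 0.25 with 0.022 without dKO embryo 1, for Cd68, over -0.11 to 0.0061, and for Spp1, over -0.072 to 0.077 with -0.014 without control embryo 3. The cause was not tested. Called genes rising in cKO after centring numbered 1 for complement, 2 for receptors of Spp1 and Lgals3, 1 for fibroblasts and 1 for choroid plexus and hem, while with the limit at 0.1 TPM, where 26.8% of all genes were called higher, they numbered 17 of 22 tested for Trem2 and Tyrobp signalling, 21 of 32 for engulfment, 20 of 26 for activated microglia and 20 of 22 for microglia identity. Unknown depth limits the reading of Trem2, Lgals3 and Spp1, whose levels were below 1 TPM in every control and dKO embryo.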
